A study of Mus musculus with 60 samples.

Results

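The genes described here are the cap'n'collar factors Nfe2, Nfe2l1 and Nfe2l2, the small Maf factors Mafk, Mafg and Maff, the repressors Bach1 and Bach2, the Nrf2 inhibitor Keap1 and the target gene Hmox1. They were taken by symbol from the deposited table, where they make up 10 of 23393 genes, and all 10 passed the filter on low values. RNA had been sequenced from erythroblasts of C57BL/6 mouse fetal liver at embryonic stages E12.5 and E14.5, from poly-A RNA. Gata1s embryos, which make a GATA1 protein without its N-terminal part, were set against wild type embryos in a less mature sort (R1/2, high CD71 with absent to intermediate Ter119) and a more mature one (R3, high in both). At E12.5 there were 4 Gata1s and 2 wild type libraries of R1/2 cells, and 2 Gata1s and 3 wild type libraries of R3 cells. At E14.5 there were 3 Gata1s and 2 wild type libraries of R1/2 cells, and 2 of either genotype of R3 cells. Library names start with JC or MS, whose meaning is unknown here, and every Gata1s R3 library is an MS one. Separate embryos are not stated for the libraries of a group, and the p-values therefore cover the spread among libraries, which may be technical.

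Cap'n'collar factors bind DNA as pairs with a small Maf, which itself has no activation domain. Nfe2 with a small Maf forms NF-E2, which acts at the globin locus control region and in platelet formation, while Nfe2l2 (Nrf2) drives antioxidant genes and Nfe2l1 (Nrf1) proteasome genes. Bach1 and Bach2 pair with the same small Mafs and repress the same kind of site until heme, which binds Bach1 directly, releases them, and Hmox1, which breaks down heme, is the classic Bach1 target.

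Mafk, Mafg and Bach1 moved together across the groups and Maff went its own way, so the promoter windows of these 4 genes are shown, from 250 bases before to 50 after the annotated start (RefSeq, GRCm38.p6, 5′ to 3′). Capitals mark matches on either strand to TGACNNNGC, the core of the antioxidant response element, or to GATAA, the core of the GATA site. The windows lie at chr5:139791286-139791585, plus strand (Mafk), chr11:120633498-120633797, minus strand (Mafg), chr15:79346371-79346670, plus strand (Maff, the most upstream of its 3 starts) and chr16:87698704-87699003, plus strand (Bach1).
Mafk: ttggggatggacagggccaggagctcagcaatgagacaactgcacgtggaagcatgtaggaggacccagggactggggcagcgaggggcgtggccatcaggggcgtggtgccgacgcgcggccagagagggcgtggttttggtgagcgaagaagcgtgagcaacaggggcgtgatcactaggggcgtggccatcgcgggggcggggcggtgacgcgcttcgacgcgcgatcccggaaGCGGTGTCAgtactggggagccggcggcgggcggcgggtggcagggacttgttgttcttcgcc
Mafg: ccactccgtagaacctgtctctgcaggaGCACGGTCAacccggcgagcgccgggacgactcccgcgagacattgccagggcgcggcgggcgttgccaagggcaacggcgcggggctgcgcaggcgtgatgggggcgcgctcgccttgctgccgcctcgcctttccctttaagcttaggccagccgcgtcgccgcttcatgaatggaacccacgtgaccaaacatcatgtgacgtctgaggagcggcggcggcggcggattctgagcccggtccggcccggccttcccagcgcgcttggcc
Maff: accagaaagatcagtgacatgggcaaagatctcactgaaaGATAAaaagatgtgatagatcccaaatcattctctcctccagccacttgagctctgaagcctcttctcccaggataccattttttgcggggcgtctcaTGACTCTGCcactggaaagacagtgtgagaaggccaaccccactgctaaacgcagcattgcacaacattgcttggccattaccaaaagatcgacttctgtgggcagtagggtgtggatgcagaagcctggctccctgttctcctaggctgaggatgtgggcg
Bach1: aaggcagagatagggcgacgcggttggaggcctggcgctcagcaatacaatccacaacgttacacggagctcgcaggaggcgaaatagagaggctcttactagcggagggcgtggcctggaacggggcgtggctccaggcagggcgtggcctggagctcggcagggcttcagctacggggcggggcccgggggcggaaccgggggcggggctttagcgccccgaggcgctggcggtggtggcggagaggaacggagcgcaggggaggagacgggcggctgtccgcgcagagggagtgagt
In all, 14 windows were found for 8 of the 10 genes, since some genes have several starts. Nfe2 and Hmox1 had no window, so the counts below do not cover them. Nfe2l1 alone had 5 windows, some of which overlap. TGACNNNGC was present in 4 of the 14 windows (1 each of Nfe2l2, Mafk, Mafg and Maff), and 12.4% of 32851 annotated promoter windows hold it. GATAA was present in 3 of the 14 (1 each of Maff, Bach2 and Keap1), and 25.4% of all windows hold it. The longer Maf recognition element, held by 0.155% of all windows, was in none of the 14. These are matches of letters in a window and not binding sites.

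Values are normalised counts per gene, log2 differences are given ± standard error (SE), and a gene is called where its adjusted p (limma, Benjamini-Hochberg over 10720 genes) is under 0.05. Libraries held 6.93 to 32.7 M reads, and the shallowest 2 were E14.5 R3 libraries; 1 read was worth up to 4.72 normalised counts. On simulated reads the limma fit called too many unchanged genes wherever the E14.5 R3 libraries entered, while edgeR did not. Those reads were drawn with edgeR's own estimate of the spread, and edgeR was given the true scaling. Its result there was thus partly built in and does not show that its calls are right. For calls of the 10 genes that involve E14.5 R3, edgeR's adjusted p or call is given beside limma's. Gata1 itself had 3475 to 3764 normalised counts in Gata1s and 2824 to 3114 in wild type libraries of E12.5 R1/2, and a count over the whole gene does not tell the shortened form from the full one. Summed over 10 erythroid markers, Gata1s libraries had 41457 to 62043 normalised counts in R1/2 and 377511 or more in R3. No mast cell or lymphoid marker passed the filter on low values, and Tpsab1 and Cd3e were at 0 in every library.

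**Figure D1:**
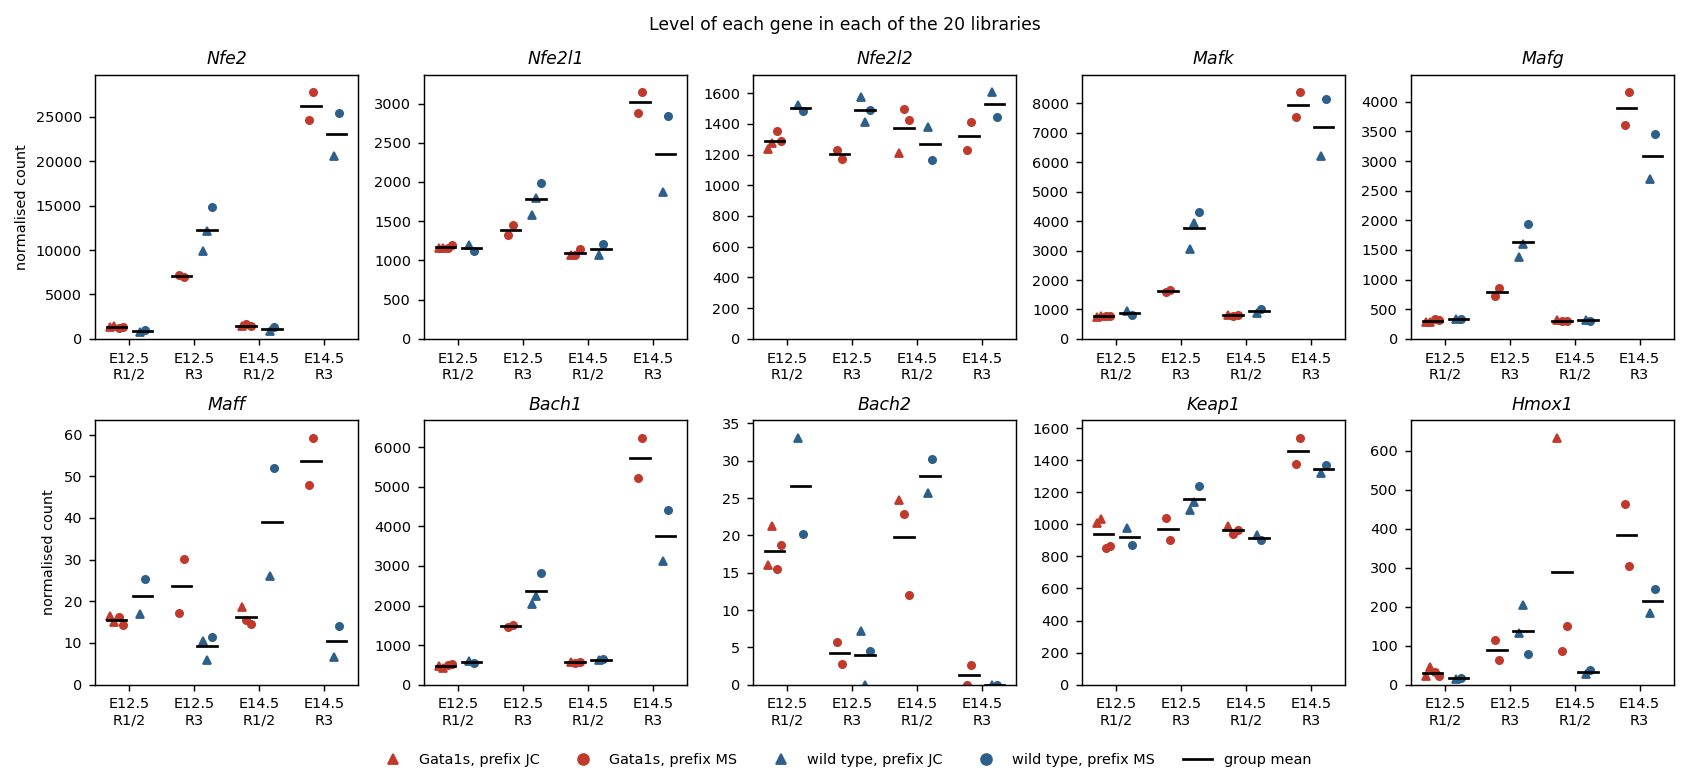
Normalised counts (vertical axes, from 0) of the 10 genes in each library, by day and sort, with Gata1s (red) left of wild type (blue); triangles and circles are the 2 prefixes of the library names, and bars are group means. Nfe2, Mafk, Mafg and Bach1 were highest in R3 at E14.5, and in R3 at E12.5 every Gata1s library lay below every wild type library for these 4 genes.

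In R3 at E12.5 most of the factors were lower in Gata1s. Mafk, Mafg, Nfe2, Bach1, Nfe2l1 and Nfe2l2 fell, which is 6 of the 10 genes, where 35.9% of all tested genes were called and 21.7% were called lower. Over all genes 1527 were called higher and 2322 lower, a split that turned to 2585 higher and 1631 lower under upper-quartile scaling, while these 6 kept their direction. In sorted bulk cells, fewer cells of a type and less RNA per cell cannot be told apart.

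Mafk, a small Maf, had 1603 and 1659.8 normalised counts in Gata1s libraries, against 3057, 3922 and 4316 in wild type libraries. The groups did not overlap, and the log2 difference was -1.26 ± 0.12 (limma adjusted p = 2.1e-06). Mafg, the second small Maf of these cells, had 728 and 853 in Gata1s and 1384, 1599 and 1935 in wild type libraries (-1.14 ± 0.13, limma adjusted p = 6.49e-06). Both Gata1s libraries were thus well below the lowest wild type library for either small Maf. Mafg shares part of its locus with the long noncoding gene Gm17586, and whether counting used strand is not given, so a part of its reads may belong to that gene.

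Nfe2, the blood-specific subunit of NF-E2, had 7204 and 6918 normalised counts in Gata1s and 9844, 12167 and 14849.8 in wild type libraries (-0.92 ± 0.14, limma adjusted p = 9.92e-05). Bach1, the heme-sensing repressor, had 1459 and 1508 in Gata1s and 2047, 2248 and 2829.5 in wild type libraries (-0.78 ± 0.13, limma adjusted p = 0.000273). The groups were apart for activator and repressor alike. These 4 calls held in each fit that left out 1 library.

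Smaller falls were found for the widely expressed factors. Nfe2l1 had 1329 and 1455 normalised counts in Gata1s and 1582, 1796 and 1982 in wild type libraries (-0.45 ± 0.12, limma adjusted p = 0.00873). Nfe2l2 had 1232 and 1173 in Gata1s and 1574, 1411 and 1488 in wild type libraries (-0.31 ± 0.10, limma adjusted p = 0.0278). Neither pair of groups overlapped, but both calls are fragile. Nfe2l1 was no longer called without wild type replicate 3 (limma adjusted p = 0.0576) or Gata1s replicate 1 (0.0796). Nfe2l2 was no longer called without wild type replicate 1 (0.0616), wild type replicate 3 (0.08), Gata1s replicate 1 (0.0669) or Gata1s replicate 2 (0.14). Under quantile normalisation Nfe2l1 was not called either (-0.23, 0.0563). Nfe2l2 was also lost under upper-quartile scaling (-0.16, 0.277) or quantile normalisation (-0.14, 0.358).

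Erythroid markers moved with these genes. Of 10 markers, 9 were lower in Gata1s R3 at E12.5, with sums of 377511 to 378214 normalised counts in Gata1s and 673991 to 977828 in wild type libraries, and the part of this in the fall of the 6 genes was not tested. Megakaryocyte markers went the other way, with 5 of 11 tested called higher and sums of 3447 to 3743 in Gata1s and 966 to 1475 in wild type libraries. Hepatoblast markers were called higher for 4 of 7 tested and lower for 0 (5 called by edgeR). Their sums overlapped, at 1081 to 1986 in Gata1s and 813 to 2016 in wild type libraries. The part of either list in the fall of the 6 genes was not tested.

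**Figure D2:**
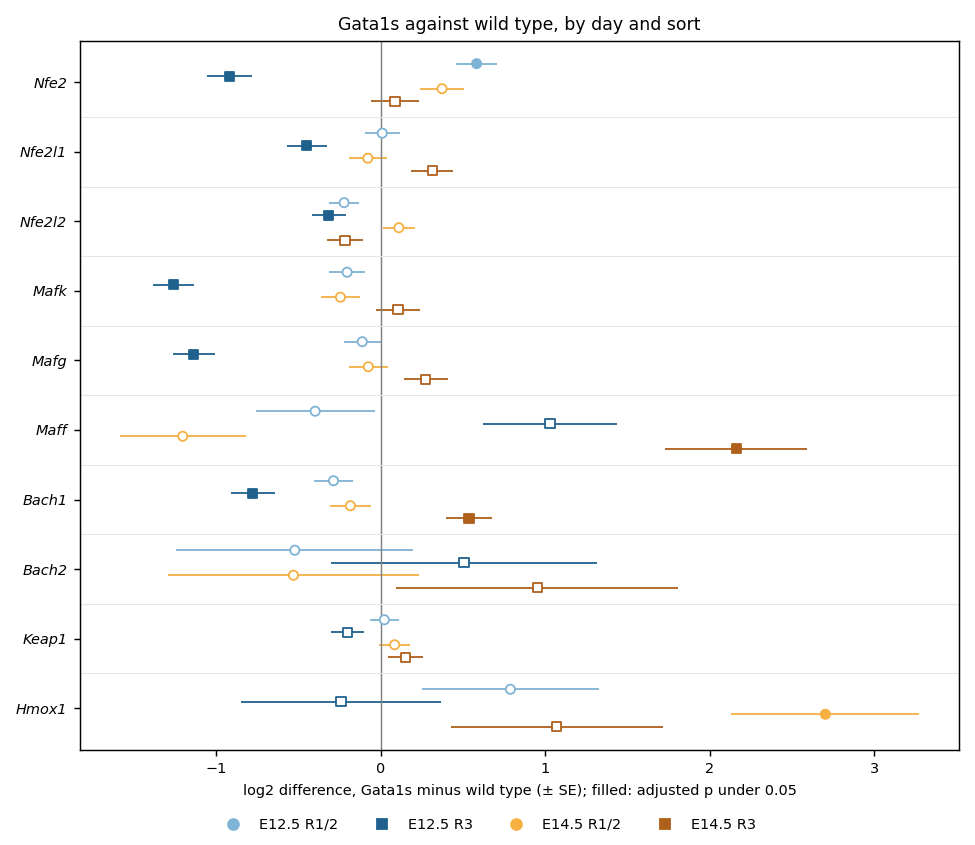
Log2 difference of each gene, Gata1s minus wild type, ± SE (horizontal axis), in the 4 combinations of day and sort; filled symbols have an adjusted p under 0.05. Mafk (-1.26), Mafg (-1.14), Nfe2 (-0.92) and Bach1 (-0.78) were lower in R3 at E12.5, and none of the 4 was lower in R3 at E14.5.

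In R3 at E14.5 none of the 10 genes was called lower. Bach1 and Maff rose, 2 of the 10 genes, where 37.4% of all tested genes were called and 16.8% were called higher (limma called 4013 genes and edgeR 3179). edgeR called these 2 and Nfe2l1. Bach1 had 5214 and 6242 normalised counts in Gata1s and 3115 and 4419.6 in wild type libraries. The groups did not overlap, and the log2 difference was 0.54 ± 0.14 (limma adjusted p = 0.00658, edgeR 0.00465). Leaving out wild type replicate 1, the JC library among these 4, ended the call (0.37) and so did leaving out Gata1s replicate 2 (0.41). Fitted on these 4 libraries alone, limma called 299 genes in all and none of the 10, Bach1 and Maff included. Of the markers, 8 of 11 for megakaryocytes were called higher in Gata1s (5 called by edgeR), with sums of 4064 to 5215 in Gata1s and 1057 to 1133 in wild type libraries. Macrophage markers were lower for 4 of 8 (1 called by edgeR), with sums of 192 to 210.1 in Gata1s and 493 to 652 in wild type libraries, and hepatoblast markers for 5 of 7 (3 called by edgeR). The part of these in the rise of Bach1 and Maff was not tested.

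Maff, a stress-inducible small Maf, had 47.9 and 59.3 normalised counts in Gata1s (13 and 22 reads) and 6.62 and 14.2 in wild type libraries (4 and 3 reads). The difference was 2.16 ± 0.43 (limma adjusted p = 0.000947, edgeR 0.0029) and it held in each fit that left out 1 library, although its size rests on 7 wild type reads. At E12.5 the Gata1s R3 libraries had 17.3 and 30.2 and the wild type R3 libraries 10.4, 5.97 and 11.3, which did not pass the test (1.03 ± 0.41, limma adjusted p = 0.0586). The remaining partners were not called at E14.5. Nfe2 had 24622 and 27820.1 in Gata1s and 20639.8 and 25432 in wild type R3, and Mafk had 7523 and 8394 in Gata1s and 6222 and 8155 in wild type R3, with overlapping groups for both. Mafg had 3614 and 4168 in Gata1s and 2693 and 3461 in wild type R3 (0.28 ± 0.13, limma adjusted p = 0.12, edgeR 0.0753). Nfe2l1 had 2880.0 and 3149 in Gata1s and 1869 and 2843 in wild type R3 (0.31 ± 0.13, limma adjusted p = 0.0659, edgeR 0.0496). Neither the Gata1s libraries of Mafg nor those of Nfe2l1 overlapped the wild type ones. Nfe2l2 had 1228 and 1409 in Gata1s and 1608 and 1445 in wild type R3, and Keap1 had 1375 and 1541 in Gata1s and 1322 and 1369 in wild type R3, and neither was called.

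The difference between the days in R3 was itself tested. The genotype effect at E14.5 minus that at E12.5 was positive and called for 5 of the 10 genes, where 23.0% of all genes were called. It was 1.41 ± 0.18 for Mafg (limma adjusted p = 0.000124, edgeR 9.24e-05), 1.37 ± 0.17 for Mafk, 1.31 ± 0.18 for Bach1, 1.01 ± 0.19 for Nfe2 and 0.76 ± 0.17 for Nfe2l1. edgeR called all 5, and each remained called whichever library was left out; the size for Nfe2l1 was 0.49 without wild type E14.5 replicate 1. Markers moved with this difference too. Of 10 erythroid markers 7 were called in the same direction as the 5 genes, with a median of 0.76. All 7 tested hepatoblast markers and 2 of 8 macrophage markers were called in the opposite direction. Hepatoblast markers summed to 86.2 to 195 in Gata1s and 345 to 3844 in wild type R3 libraries of E14.5, and to 1081 to 1986 in Gata1s and 813 to 2016 in wild type R3 libraries of E12.5. Their part in the result was not tested. In R1/2 the same test called 0 of the 10 genes by limma, edgeR or DESeq2 (2 at an unadjusted p under 0.05), where limma called 0.00933% of all genes.

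In R1/2 cells limma called Nfe2 at E12.5 and Hmox1 at E14.5, both higher in Gata1s, and no other of the 10 genes. The difference between the days was called for neither gene. At E12.5 that is 1 of the 10 genes, where 9.55% of all genes were called. Nfe2 had 1294, 1417, 1253 and 1302 normalised counts in Gata1s and 807 and 952 in wild type libraries (0.58 ± 0.12, limma adjusted p = 0.00614). All 4 Gata1s libraries exceeded both wild type libraries, and without wild type replicate 1 the size was similar (0.57) but not called (limma adjusted p = 0.0771). Markers of other cells were higher there as well: 6 of 11 for megakaryocytes, which also express Nfe2, with sums of 1256 to 2496 in Gata1s and 515 to 587 in wild type libraries, 4 of 11 for neutrophils and monocytes, and 3 of 7 for hepatoblasts. Their part in the rise of Nfe2 was not tested. At E14.5 Nfe2 had 1440.5, 1621 and 1423 in Gata1s and 933 and 1353 in wild type libraries (0.37 ± 0.13, limma adjusted p = 0.0868), which did not pass.

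The direction of the Nfe2 effect thus differed between the sorts at E12.5. The effect in R3 minus that in R1/2 was -1.50 ± 0.19 for Nfe2 (limma adjusted p = 0.00016), -1.06 ± 0.17 for Mafk (0.000874) and -1.02 ± 0.17 for Mafg (0.00117), 3 of the 10 genes against 15.4% of all genes. Erythroid markers moved with this difference. Of 10 such markers, 7 were called lower and 0 higher, with a median of -0.83 against 0.009 for all genes. Their part in the result for these 3 genes was not tested. At E14.5 the same difference was called for Maff (3.36 ± 0.57, limma adjusted p = 0.000814, edgeR 0.0011) and Bach1 (0.72 ± 0.18, 0.0146, edgeR 0.0132), where 15.7% of all genes were called. The Bach1 call ended when wild type R1/2 replicate 1 (0.0702), wild type R3 replicate 1 (0.0538) or Gata1s R3 replicate 2 (0.073) was left out. Over both days the difference between sorts was called for Nfe2, Maff and Mafk, where 21.7% of all genes were called, and edgeR did not call Mafk (edgeR adjusted p = 0.0867). The Mafk call is not stable, since it held in 4 of the 20 fits that left out 1 library. In R1/2 at E14.5 Maff had 18.6, 15.5 and 14.6 normalised counts in Gata1s and 26.1 and 52 in wild type libraries (-1.20 ± 0.38, limma adjusted p = 0.0582, edgeR 0.0208). Both wild type libraries lay above the 3 Gata1s libraries. Neutrophil and monocyte markers summed to 4970.3 to 5409.9 in these Gata1s libraries, and to 20964.6 in wild type replicate 1 and 828 in wild type replicate 2, the library with the higher Maff value. Their part in the result was not tested.

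The partners other than Nfe2 were not called in R1/2. Bach1 averaged 471 ± 44.1 normalised counts in Gata1s and 573 ± 33.2 in wild type R1/2 at E12.5, and 566 ± 17.3 in Gata1s and 630.3 ± 19.5 in wild type R1/2 at E14.5 (SD over libraries, here and in the next sentences). Mafk averaged 762 ± 11.3 in Gata1s and 879 ± 74.8 in wild type at E12.5, and 809.9 ± 20.3 in Gata1s and 949 ± 76.2 in wild type at E14.5. Mafg averaged 308 ± 26.7 in Gata1s and 332 ± 2.37 in wild type at E12.5, and 304 ± 6.24 in Gata1s and 315 ± 15.1 in wild type at E14.5. None of these 3 genes passed the test in R1/2. Nfe2l1 averaged 1169 ± 15.6 in Gata1s and 1161 ± 57.1 in wild type at E12.5, and Nfe2l2 1288 ± 46.4 in Gata1s and 1501 ± 29.6 in wild type. At E14.5 Nfe2l1 averaged 1097 ± 41.1 in Gata1s and 1140.1 ± 91.4 in wild type R1/2, Nfe2l2 1374 ± 149 in Gata1s and 1269.9 ± 150.2 in wild type, and Keap1 965 ± 25.6 in Gata1s and 917 ± 22.4 in wild type. In R1/2 at E12.5 Maff averaged 15.6 ± 0.963 in Gata1s and 21.2 ± 5.94 in wild type, and Bach2 17.9 ± 2.63 in Gata1s and 26.6 ± 9.13 in wild type. None of these passed the test. Keap1 averaged 939.7 ± 95.2 in Gata1s and 923 ± 76.1 in wild type R1/2, and 972 ± 98.1 in Gata1s and 1156 ± 74.7 in wild type R3 of E12.5, and was not called in either. Bach2 had 5 and 2 reads in Gata1s and 9, 0 and 2 reads in wild type R3 of E12.5, too few to compare.

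Hmox1, heme oxygenase 1, varied widely within groups. In R1/2 at E14.5 the Gata1s libraries had 634, 85.7 and 151 normalised counts and the wild type libraries 26.5 and 38.7, where 10.1% of all genes were called. Every Gata1s library exceeded both wild type libraries, and the value of replicate 1 was far above those of the other Gata1s libraries. The log2 difference was 2.70 ± 0.57 (limma adjusted p = 0.00611). It was not called among the MS libraries alone (1.53, limma adjusted p = 0.0589) or without wild type replicate 1 (2.13, 0.0784), and it stayed called without Gata1s replicate 1 (1.85, 0.0258).

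At the other combinations Hmox1 did not pass. It had 21.1, 44.6, 31.8 and 22.1 in Gata1s and 14.8 and 17.6 in wild type R1/2 at E12.5, 114 and 64.5 in Gata1s and 131, 204 and 79.3 in wild type R3 at E12.5, and 465 and 304 in Gata1s and 185 and 246 in wild type R3 at E14.5. Over the mean of the 4 combinations it was higher in Gata1s (1.08 ± 0.31, limma adjusted p = 0.00906, edgeR 0.00299). Macrophages are known for high Hmox1. Their 12 markers summed to 83 to 104 in Gata1s and 141 to 163 in wild type R1/2 libraries of E14.5 and 0 of 8 tested markers were called there by limma. Megakaryocyte markers were called higher there for 6 of 11. The part of either in the Hmox1 difference was not tested.

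**Figure D3:**
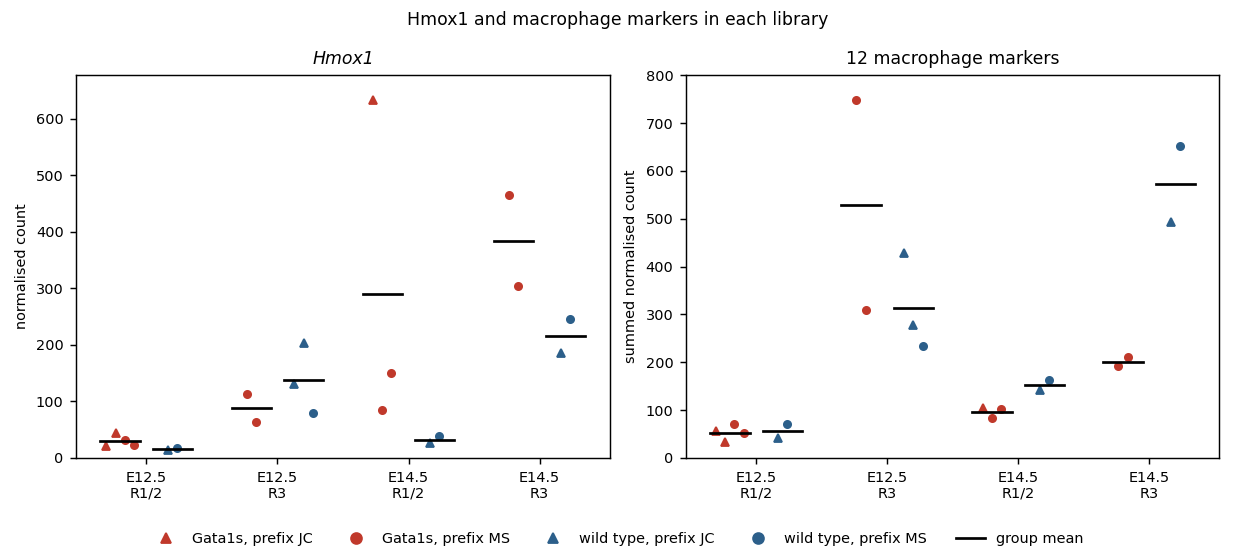
Normalised counts of Hmox1 (left) and summed normalised counts of 12 macrophage markers (right) in each library, with Gata1s left of wild type and bars at group means. In R1/2 at E14.5 Hmox1 was 85.7 to 634 in Gata1s and 26.5 to 38.7 in wild type libraries, while the marker sum was 83 to 104 in Gata1s and 141 to 163 in wild type libraries.

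Averaged over the 4 combinations, 45.3% of all genes were called, and 5 of the 10. Besides Hmox1 these were Mafk (-0.40 ± 0.06, limma adjusted p = 7.38e-05, edgeR 0.000113), Mafg (-0.26 ± 0.06, 0.00337, edgeR 0.00457), Nfe2l2 (-0.16 ± 0.05, 0.0211, edgeR 0.0363) and Bach1 (-0.18 ± 0.07, 0.0403, edgeR 0.0664). The share is near that of all genes. For Mafk, Mafg and Bach1 the mean joins unlike effects. Their ratios of group means, Gata1s over wild type, were 0.43, 0.48 and 0.62 in R3 at E12.5. In R3 at E14.5 these ratios were 1.11, 1.26 and 1.52. edgeR did not call Bach1, whose limma call held in 7 of the 20 fits without 1 library, and Nfe2l2 was lost without Gata1s E14.5 R1/2 replicate 1 (0.0684) or Gata1s E14.5 R3 replicate 1 (0.0576).

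From R1/2 to R3, 69.0% and 81.7% of all genes were called in Gata1s at E12.5 and E14.5, and 75.0% and 79.3% in wild type, so calls of single genes are common here and the sizes carry the description. Nfe2 was the steepest riser: R3 was 4.06 ± 0.13 above R1/2 in Gata1s and 4.35 ± 0.14 in wild type at E14.5, and 2.32 ± 0.13 and 3.82 ± 0.13 in Gata1s and wild type at E12.5. Mafg was 3.62 ± 0.12 higher in R3 in Gata1s and 3.27 ± 0.13 in wild type at E14.5, Mafk 3.26 ± 0.12 and 2.91 ± 0.13, and Bach1 3.28 ± 0.13 and 2.56 ± 0.14, in the same order of genotypes. All of these were called by limma and edgeR. Nfe2l1 was 1.41 ± 0.12 higher in R3 in Gata1s and 1.02 ± 0.12 in wild type at E14.5, and in wild type also at E12.5 (0.64 ± 0.11). Hmox1 was higher in R3 in wild type at E14.5 (2.70 ± 0.62, edgeR adjusted p = 0.00235). At E12.5 Hmox1 was 1.81 ± 0.56 higher in R3 in Gata1s and 2.84 ± 0.57 in wild type, and the Gata1s call was lost without R3 replicate 1 (1.40). Macrophage markers rose with Hmox1. Of 8 tested, 6 were called higher in R3 in Gata1s at E12.5, and 7 in wild type at E12.5 and at E14.5. Their sums in wild type libraries of E12.5 were 42.5 to 70.3 in R1/2 and 233 to 429 in R3. The part of these markers in the Hmox1 rise was not tested.

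The low genes behaved differently. Maff was higher in R3 than in R1/2 in Gata1s at E14.5 (1.55 ± 0.39, limma adjusted p = 0.00159, edgeR 0.000961) and lower in R3 in wild type (-1.82 ± 0.42, 0.000823, edgeR 0.00164). The wild type fall was not called under quantile normalisation (-1.05, 0.0534). Bach2, a repressor best known from B cells, was nearly undetected in R3. At E14.5 R3 it had 0 and 1 reads in the Gata1s libraries and 0 in both wild type libraries, against 24.7, 22.8 and 12 normalised counts in Gata1s and 25.7 and 30.2 in wild type R1/2. Counting 3 reads per library as the floor, wild type R3 was at least 2.92-fold lower than wild type R1/2. Bach2 overlaps the long noncoding gene Bach2os, so its few reads may be shared.

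Keap1, the adaptor that sends Nrf2 to degradation, and Nfe2l2 itself were the flattest. Nfe2l2 ranged from 1164 to 1608 normalised counts over all 20 libraries. Keap1 was 0.62 ± 0.10 higher in R3 in Gata1s (edgeR adjusted p = 1.62e-05) and 0.55 ± 0.10 in wild type at E14.5 (edgeR 0.000308). In wild type at E14.5 Nfe2l2 was 0.27 ± 0.11 higher in R3 (limma adjusted p = 0.0309, edgeR 0.0549), but the sign turned under upper-quartile scaling (-0.15), which moved the median of all genes to -0.52 in place of -0.11. The wild type rises of Keap1 were not called under that scaling either.

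**Figure D4:**
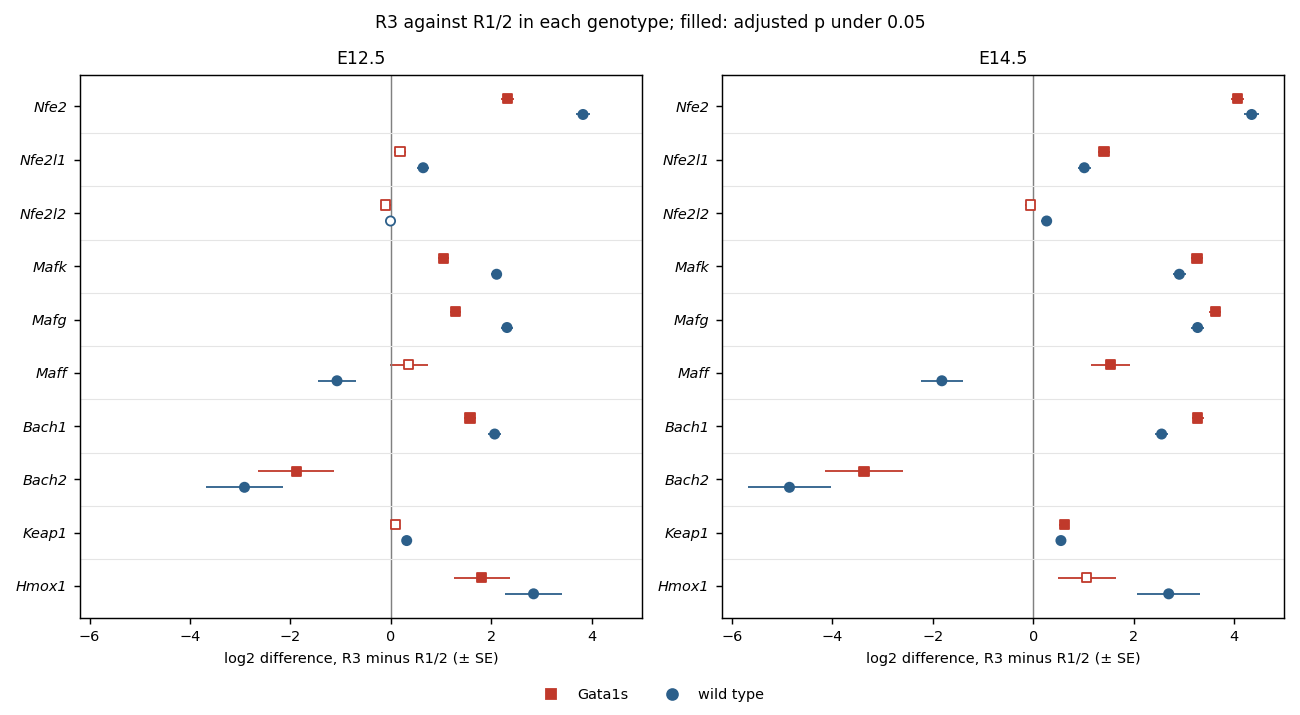
Log2 difference R3 minus R1/2, ± SE (horizontal axes), at E12.5 and E14.5, with Gata1s (red squares) above wild type (blue circles); filled symbols have an adjusted p under 0.05. At E12.5 the rises of Nfe2, Mafk and Mafg were smaller in Gata1s (2.32, 1.05 and 1.28) than in wild type (3.82, 2.10 and 2.31), and the plotted size of Bach2 at E14.5 rests on 0 or 1 reads and depends on the pseudocount.

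Between the days, R3 cells differed and R1/2 cells hardly did. In Gata1s R3, 8 of the 10 genes were higher at E14.5 than at E12.5 (60.0% of all genes called), among them Mafg (2.30 ± 0.13), Mafk (2.28 ± 0.13), Bach1 (1.94 ± 0.14) and Nfe2 (1.89 ± 0.14), and with smaller sizes Nfe2l1 (1.11 ± 0.12) and Keap1 (0.59 ± 0.10), besides the low genes Hmox1 (2.12 ± 0.62) and Maff (1.19 ± 0.42). In wild type R3, 5 were higher at E14.5 (40.7% of all genes called), with sizes of 0.92 ± 0.12 for Mafk, 0.89 ± 0.12 for Mafg 0.88 ± 0.13 for Nfe2, 0.63 ± 0.12 for Bach1 and 0.35 ± 0.11 for Nfe2l1. edgeR called 8 in Gata1s and 5 in wild type R3. Erythroid markers moved the same way. All 10 were called higher at E14.5 in R3 of either genotype, with a median of 1.53 in Gata1s and 0.71 in wild type. Hepatoblast markers summed to 1081 to 1986 at E12.5 and 86.2 to 195 at E14.5 in Gata1s R3 libraries. In wild type R3 libraries they summed to 813 to 2016 and 345 to 3844. The part of these markers in the differences between days was not tested. Of the Gata1s calls, Maff was lost without E12.5 replicate 1 (0.184) or E14.5 replicate 2 (0.104), and Hmox1 without E12.5 replicate 2 (0.0751) or E14.5 replicate 1 (0.0614). Of the wild type calls, Nfe2l1 was lost without E12.5 replicate 1 (0.0821) or E14.5 replicate 2 (0.10, 0.561). In R1/2 cells Hmox1 in Gata1s was the single call (2.86 ± 0.48, limma adjusted p = 0.00563; 1.32% of all genes called), lost without Gata1s E14.5 replicate 1 (2.01, 0.066). In wild type R1/2, 0 of the 10 were called by limma, edgeR or DESeq2 (2 at an unadjusted p under 0.05), where limma called 1.04% of all genes.

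Genes on which these factors act were described from lists. Of 27 Nrf2 targets 23 were tested. In Gata1s R3 at E14.5, 14 were higher and 2 lower by limma, which called 37.4% of all genes there, and edgeR called 15 in all. The list had a median log2 difference of 0.45 against -0.05 for all genes. In R3 at E12.5, 7 were higher and 7 lower, where 35.9% of all genes were called. In R1/2, 7 were higher and 1 lower at either day, where 9.55% of all genes were called at E12.5 and 10.1% at E14.5. Slc7a11, the cystine importer, had 3960.5 and 5043 normalised counts in Gata1s and 13.2 and 4.72 in wild type R3 of E14.5 (8 and 1 reads; edgeR adjusted p = 3.48e-08), the widest gap of the list. Srxn1, sulfiredoxin, had 399, 441 and 397 in Gata1s and 122 and 127 in wild type R1/2 of E14.5 (1.71 ± 0.12, limma adjusted p = 3.03e-07). The drug and nucleotide exporter Abcc4 and the dehydrogenase Idh1 were called higher in all 4 combinations, as were Slc7a11 and Srxn1, and the glutathione transferase Gsta4 (chosen after its values were seen) was called lower in all 4.

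Gclm, a subunit of the glutathione-making ligase, was lower in Gata1s R3 at E12.5 (-0.63 ± 0.12, limma adjusted p = 0.000528) and higher at E14.5 (0.45 ± 0.12, 0.00922, edgeR 0.00829), the E14.5 call being lost when wild type replicate 1 (0.0748) or Gata1s replicate 2 (0.0783) was left out. Nqo1, a quinone reductase, had 3138 and 3580.2 in Gata1s and 1221 and 2054 in wild type R3 of E14.5 (0.97 ± 0.22, limma adjusted p = 0.00301, edgeR 0.00188).

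**Figure D5:**
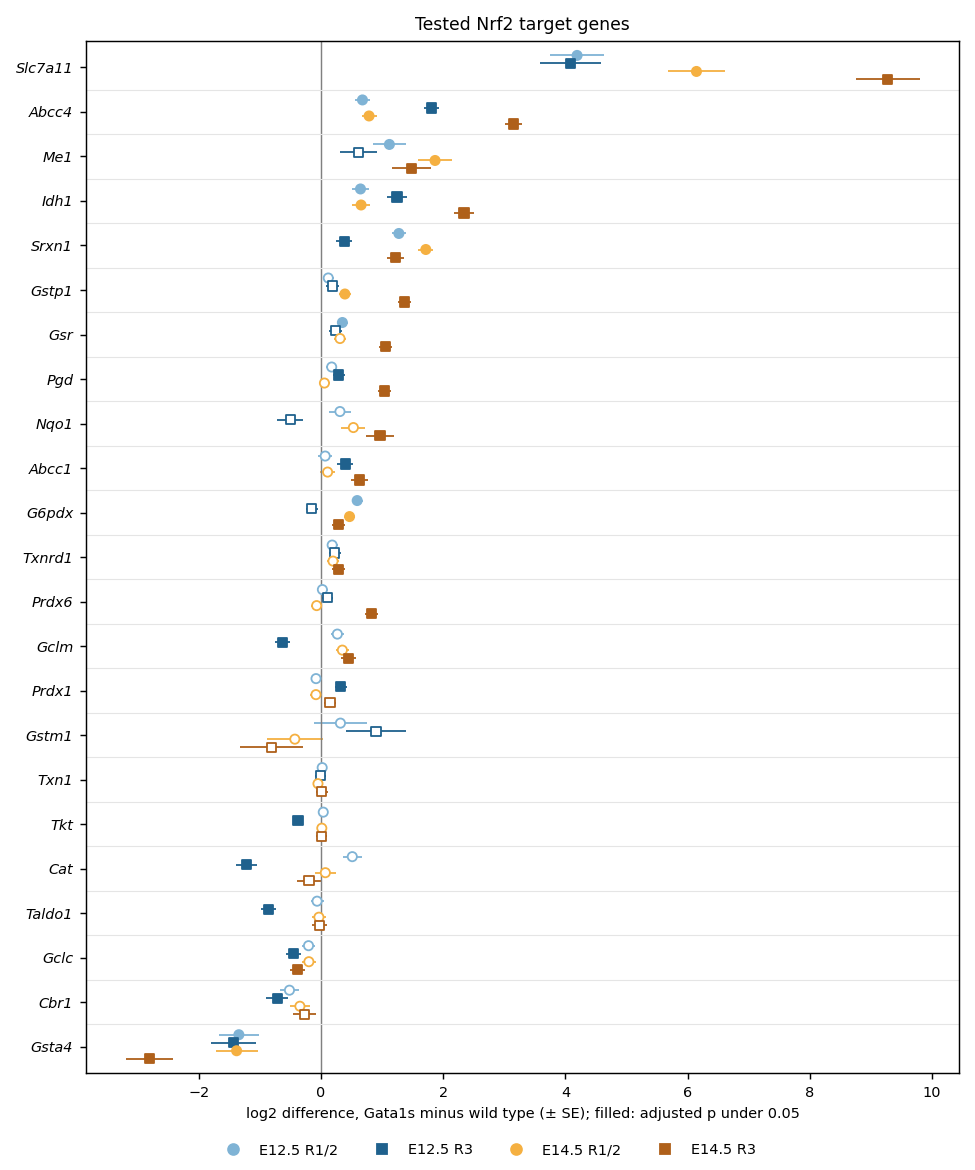
Log2 difference, Gata1s minus wild type, ± SE (horizontal axis), of the 23 tested Nrf2 targets in the 4 combinations of day and sort, ordered by their mean; filled symbols have an adjusted p under 0.05. Slc7a11 is far right in every combination and Gsta4 far left.

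Of the 10 genes of heme breakdown and iron storage, 6 were lower and 1 higher in Gata1s R3 at E12.5. There 35.9% of all genes were called and 21.7% were called lower. Slc48a1, a heme transporter, fell by 1.56, Blvrb, a biliverdin reductase, by 1.14, and the iron exporter Slc40a1 by 1.03 on the log2 scale, while Hmox2, the constitutive heme oxygenase, rose (0.55 ± 0.11, limma adjusted p = 0.000901). In R3 at E14.5, 2 of the 10 were higher and 1 lower, where 37.4% of all genes were called, and edgeR called 3 of the 10. Of 5 tested NF-E2 targets of megakaryocytes, 0 were higher and 2 lower in Gata1s R3 at E12.5. In R3 at E14.5, 1 was higher and 2 lower (4 called by edgeR). In R1/2, 2 were higher and 1 lower at either day, where 9.55% of all genes were called at E12.5 and 10.1% at E14.5. Over the mean, 2 were higher and 2 lower, where 45.3% of all genes were called. Tubb1, a platelet tubulin, was lower in Gata1s in all 4 combinations, although megakaryocyte markers as a list were higher. It had 1075 and 1026 normalised counts in Gata1s and 6927, 6725 and 4014 in wild type R3 of E12.5. Rab27b, a granule transport protein, was higher in Gata1s over the mean (1.20 ± 0.15, limma adjusted p = 7.49e-06).

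Proteasome subunits, known targets of Nfe2l1, were also counted. Of 31, 2 were higher and 3 lower in Gata1s R3 at E12.5 (35.9% of all genes called). In R3 at E14.5, 2 were higher and 1 lower (37.4% of all genes called, and 2 subunits called by edgeR). In R1/2, 0 were called at either day, where 9.55% of all genes were called at E12.5 and 10.1% at E14.5. Psmd4 was the most changed at E12.5 (-0.44 ± 0.09, limma adjusted p = 0.000743) and Psmb5 at E14.5 (0.62 ± 0.13, 0.00104, edgeR 0.000993). Of 13 Keap1 partners and turnover factors, 4 were lower in R3 at E12.5, led by the ligase adaptor Btrc (-1.14 ± 0.16, limma adjusted p = 6.22e-05). There 35.9% of all genes were called and 21.7% were called lower. At E14.5, 3 were higher and 3 lower in R3 (6 called by edgeR), where 37.4% of all genes were called. In R1/2 limma called 0 at either day, against 9.55% and 10.1% of all genes.

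Across the 20 libraries the partners went in parallel, and all share the gap between sorts, so r is a description only. Pearson's r of log2 values was 0.99 between Mafk and Mafg, 0.99 between Mafg and Bach1 and 0.98 between Nfe2 and Mafg, and -0.91 between Nfe2 and Bach2. Maff was close to 0 against Mafk (-0.01) and Mafg (-0.01). The genes most like Nfe2 in pattern were Dnm2, Rab3il1 and Ucp2 (r of 0.995 or more), those most like Mafk were Fbxo34, Dedd2 and Rnf10, and those most like Bach1 were Aff1, Stx5a and Zc3hav1. Hmox1 had no such close partner, with Cdk2ap2 the nearest at 0.838.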

How the data were processed

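The authors deposited signal values, namely gene counts divided by a factor per library. The submitters' processing notes name TopHat2, HTSeq, DESeq2, mm10 and mm9 without roles. Libraries were poly-A selected and directional, per the labels' protocols. Each value was a whole multiple of what 1 read is worth in its library (100% within 0.001), so reads were recovered. Of 23420 entries, 27 named by a date and 1 column matching no sample were left out.

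With limma 3.58.1 (trend, R 4.3.3), log2 values after adding 1 were fitted over genes averaging 10 or more, with 8 group means and a term for the library name prefix (JC or MS), and adjusted p-values follow Benjamini-Hochberg. Every Gata1s R3 library has prefix MS. The prefix term was itself called by limma for 14.6% of all genes and for 0 of the 10 members (4 at an unadjusted p under 0.05). Recovered reads were also tested with edgeR 4.0.16, DESeq2 1.42.0 and voom. On simulated data the limma fit was too liberal where the E14.5 R3 libraries enter, so its counts of called genes there, and the background shares, may be too high. Few genes were changed in the simulation, so it does not give the size of any such excess in these data. The limma fit was kept as the main test because it had been set as such, and edgeR values are given beside it. The simulated reads used edgeR's own spread and the true scaling, so they do not show that edgeR is the better test here.

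The members and gene lists were chosen with earlier results of these data known. By rule the 10 members were to be named in each comparison; values that were not called between sorts and days are left out. List genes were named by smallest adjusted p, and likeness by Pearson's r. Protein sequences were not used here, and chromatin samples were not analysed here.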

Additional observations from a re-analysis of the deposited data

Results flagged for a closer look

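Nfe2l1 in Gata1s R1/2 at E12.5 has 1 library, replicate 4, apart from the others: its gap to the next library is 0.833 of the group's range, although all 4 values lie between 1158 and 1192. About 1 in 20 groups is marked in this way by chance.

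The genotype effect differed between days in R3 (E14.5 minus E12.5) for Nfe2 (1.01), Nfe2l1 (0.76), Mafk (1.37), Mafg (1.41) and Bach1 (1.31). It differed between sorts at E12.5 (R3 minus R1/2) for Nfe2 (-1.50), Mafk (-1.06) and Mafg (-1.02), and at E14.5 for Maff (3.36) and Bach1 (0.72). Over both days the difference between sorts was -0.89 for Nfe2, 2.40 for Maff and -0.35 for Mafk, and edgeR did not call the last (adjusted p = 0.0867).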

How the results depend on the processing

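Of 75 called member results, 2430 of 2557 alternatives gave the same call and 2 reversed. The number of members called in E12.5 R1/2 was 1, and 2 under quantile normalisation or with only the groups compared, 0 to 1 leaving out a library. In E12.5 R3 it was 6, and 4 under quantile normalisation or the replicate block, 5 with only the groups compared, 7 with no prefix term or MS libraries only, and 4 to 7 leaving out a library. In E14.5 R1/2 it was 1, and 2 with a pseudocount of 5, upper-quartile scaling, quantile normalisation, edgeR, voom or DESeq2, 3 with MS libraries only, 0 with only the groups compared, and 0 to 2 leaving out a library. In E14.5 R3 it was 2, and 1 with a mean of at least 50, 0 with only the groups compared, 3 with edgeR, upper-quartile scaling or no prefix term, 4 with voom, and 1 to 3 leaving out a library. For the mean it was 5, and 4 with edgeR, voom, no filter or no prefix term, 3 under upper-quartile scaling or the replicate block, and 3 to 5 leaving out a library. The cause of these changes was not tested. Nfe2l2, R3 minus R1/2 in wild type at E14.5, reversed to -0.15 under upper-quartile scaling and -0.19 under quantile normalisation, and Psmd13 in E12.5 R3 to 0.00028 under quantile normalisation.

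Samples share only a replicate number: deviations of same-numbered samples correlated at -0.13 to 0.099. In simulated reads the limma test was too liberal in comparisons with E14.5 R3 libraries, and in Gata1s against wild type there edgeR called 3179 genes, limma 4013, and limma on those 4 libraries alone 299. In R1/2 limma called 1024 genes at E12.5 and 1086 at E14.5, against 1538 and 1460 by edgeR, 2180 and 1925 by voom, 1861 and 1760 by DESeq2 and 1553 and 1630 after quantile normalisation. The replicate block gave 1758 genes in E12.5 R3 in place of 3849, and 70 in place of 1652 for the difference between sorts at E12.5, where Mafk and Mafg were no longer called. It also ended the call of Maff for the difference between sorts over both days (0.0784). JC libraries only, chosen after seeing the data, holds no Gata1s R3 library. Maff and Bach2 rest on few reads.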
